A study of Mus musculus with 6 samples.

Results

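The genes described here are 10 components of the circadian clock, taken by name from a count table of 25860 genes and all found there by Entrez Gene ID. They are Arntl (also called Bmal1), Clock and Npas2 of the activating arm, the repressors Per1, Per2, Per3, Nr1d1 and Nr1d2, and the output factors Dbp and Tef. Their reads come from RNA-seq of normal-looking lung tissue of 12-month-old mice without experimental treatment, with 1 library per mouse. Replicates 1, 2 and 3 were RAG1-/- and replicates 4, 5 and 6 were RAG1-/- Sgo1-/+. All mice were on the C57BL/6 background and lacked RAG1, the recombinase that mature T and B cells require, and the second group also carried 1 defective copy of Sgo1, a protector of chromosome cohesion, as a model of chromosome instability. Neither allele is described as limited to a tissue. The study used both sexes, and the sex of the sequenced mice is read from their transcripts below. The time of day at which lungs were taken is not given in the sources used here.

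The clock is a loop of transcription and repression that runs in nearly every cell, lung epithelium included. ARNTL pairs with CLOCK or NPAS2 and switches on genes with an E-box, among them the Period genes, Nr1d1, Nr1d2, Dbp and Tef. The Period proteins then shut this pair down, and REV-ERB alpha and beta (encoded by Nr1d1 and Nr1d2) repress Arntl and Npas2 through ROR elements. In a tissue sampled around the day, Arntl and Npas2 therefore peak when the outputs of the loop are low, and the opposite arms can be read against each other within a library.

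Promoter sequences of RefSeq on GRCm38.p6, covering 250 bases before and 50 after a transcript start, were found for 9 of the 10 genes. Per2 had none and was not searched. Those of 3 genes are shown, each with a different kind of clock element in capitals, since the results below turn on the genes that carry them. The Arntl promoter shown (chr7:113207261-113207560, plus strand) has the ROR element TAGGTCA, at position 31 after the transcript start. The Per1 promoter shown (chr11:69098699-69098998, plus strand) has the E-box CACGTG and the reverse complement of the ROR half-site AGGTCA. The Per3 promoter (chr4:151044616-151044915, minus strand) has 2 copies of the D-box TTATGTAA, the element that DBP and TEF bind. Arntl and Per1 each have another promoter, not shown, with none of the elements searched for below.
Arntl: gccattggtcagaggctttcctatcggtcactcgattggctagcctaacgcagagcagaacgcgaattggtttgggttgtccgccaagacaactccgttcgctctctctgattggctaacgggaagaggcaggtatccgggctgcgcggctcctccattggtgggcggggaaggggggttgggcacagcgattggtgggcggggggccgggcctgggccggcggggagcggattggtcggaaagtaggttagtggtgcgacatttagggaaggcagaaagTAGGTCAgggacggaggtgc
Per1: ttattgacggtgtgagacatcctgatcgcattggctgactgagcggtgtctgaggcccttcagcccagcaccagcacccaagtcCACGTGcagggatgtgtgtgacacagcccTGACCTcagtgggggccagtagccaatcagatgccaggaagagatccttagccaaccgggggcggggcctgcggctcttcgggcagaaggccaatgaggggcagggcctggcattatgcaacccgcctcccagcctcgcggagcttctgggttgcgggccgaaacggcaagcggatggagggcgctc
Per3: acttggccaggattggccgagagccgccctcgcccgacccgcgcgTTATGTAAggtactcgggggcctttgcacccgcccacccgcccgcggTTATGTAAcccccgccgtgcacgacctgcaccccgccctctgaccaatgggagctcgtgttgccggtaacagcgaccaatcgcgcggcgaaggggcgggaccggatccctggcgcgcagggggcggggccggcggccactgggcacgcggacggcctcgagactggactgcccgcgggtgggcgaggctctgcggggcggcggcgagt

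Both strands were searched in the 9 genes. CACGTG was found in Per1 and Tef, against 8.09% of all 27025 genes with a promoter of this length. The variant CACGTT was found in Nr1d1 (5.44% of all genes), TTATGTAA in Per3 (1.11%) and TTACGTAA in 0 members (0.126%). TAGGTCA was found in Arntl (2.97%), and the half-site AGGTCA, which lies within it, in Arntl, Clock, Per1 and Nr1d2 (18.1%). These are matches of letters in a short window and do not show binding.

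Total counts on genes were between 3205822 and 9366774 per library, so that 3 reads, taken as the smallest amount detected, correspond to 0.320 to 0.936 CPM, a library's count of a gene per 1000000 of its counts. Lung identity was clear in every library, with all 11 lung marker genes detected and their summed level between 78090 and 99860 CPM. Sgo1 had only 0 to 6 reads per library, too few to read the loss of a copy, and Rag1 had 8 to 24. The library labelled RAG1-/- replicate 2 held B cell transcripts that go against its label, with 1853 reads of Igkc and 78 of Ms4a1, while Ms4a1 was at 0 in the other 5 libraries. RAG1-/- replicate 1 alone had Xist (7717 reads, against 4 to 8 in the others) and the brown fat gene Ucp1 (114 reads, against 0). It had 2 reads of the Y chromosome gene Ddx3y, against 342 to 1228 in the others. By these transcripts replicate 1 was female and replicates 2 to 6 were male. All RAG1-/- Sgo1-/+ libraries were thus male, and sex was not balanced between the groups. RAG1-/- Sgo1-/+ replicate 6 stood apart on the first principal component (68.2, against -34.1 to 3.95). Values without replicates 2 and 6 are therefore given where they matter.

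Per length of exon, the clock genes fell into 3 tiers of expression. In RAG1-/- lungs Nr1d2 was at 67.8 ± 1.94 CPM per kilobase (mean ± SD, n = 3), Nr1d1 at 62.7 ± 5.88, Tef at 55.3 ± 5.85 and Dbp at 48.0 ± 4.69. Neighbours among these 4 did not differ beyond their SDs. The Period genes followed at 11.4 ± 2.23 (Per1), 11 ± 0.551 (Per3) and 8.41 ± 1.11 (Per2), with Clock at 6.29 ± 0.676. Per1 and Per3 lay within their spread, and the steps from Per3 to Per2 and from Per2 to Clock were larger than the summed SDs. Arntl at 1.15 ± 0.432 and Npas2 at 1.1 ± 0.148 were lowest, and did not differ beyond their spread. In RAG1-/- Sgo1-/+ the order began with Nr1d1 at 67.1 ± 6.95, ahead of Nr1d2 at 54.7 ± 11.4, Tef at 54.2 ± 7.23 and Dbp at 46.8 ± 6.71. Neighbours in this order again did not differ beyond their SDs. Its ends did not overlap, with Nr1d1 at 62.7 to 75.1 and Dbp at 39.8 to 53.1 over the libraries. The lengths are of merged exons in GENCODE M21 on GRCm38, while the reads were counted on an earlier build. The SDs cover the spread of mice and not the choice of exon length, 13727 bases for Clock. By CPM alone in RAG1-/-, Clock (86.3) stood above Per1 (64.2) and Per2 (49.2) and below Per3 (106). The libraries were not strand-specific by their kit, so reads of Nr1d1 and Thra, which share 8.55% of the exon length of Nr1d1 on opposite strands, and of Dbp and Sphk2, which share 18% of that of Dbp, cannot be told apart there. Thra was at 28.0 to 39.6 CPM and Sphk2 at 36.8 to 52.1 CPM.

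The groups were first compared over all genes. Of 17231 genes with at least 10 reads in total, 0 (0%) passed a Benjamini-Hochberg adjusted P under 0.05 with at least a 2-fold difference in the quasi-likelihood test of edgeR, and 0 of the 10 clock genes did. An unadjusted P under 0.05 was found for 5.66% of all tested genes (3.15% higher and 2.52% lower in RAG1-/- Sgo1-/+) and for 0 clock genes. DESeq2 called 1 gene over the table (694 at an unadjusted P under 0.05) and limma-voom 0 (838), with 0 clock genes called by either. Without replicates 2 and 6 also 0 were called, and 1, Per1, had an unadjusted P under 0.05 (log2 fold change 0.70, adjusted P=0.993), as did 611 of the 16754 genes tested in that fit. At an unadjusted P under 0.05, DESeq2 had 1 clock gene, Nr1d2, and limma-voom 0. The 10 clock genes had log2 fold changes between -0.44 and 0.71, 5 above and 5 below 0, with a median of 0.03, against 0.03 over all tested genes. Groups that did not overlap were found for 1 clock gene, Nr1d2, which was lower, against 5.54% of tested genes lower, 6.24% higher and 11.8% in either direction. In bulk tissue, fewer cells that express a gene and less RNA per cell cannot be told apart.

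**Figure D1:**
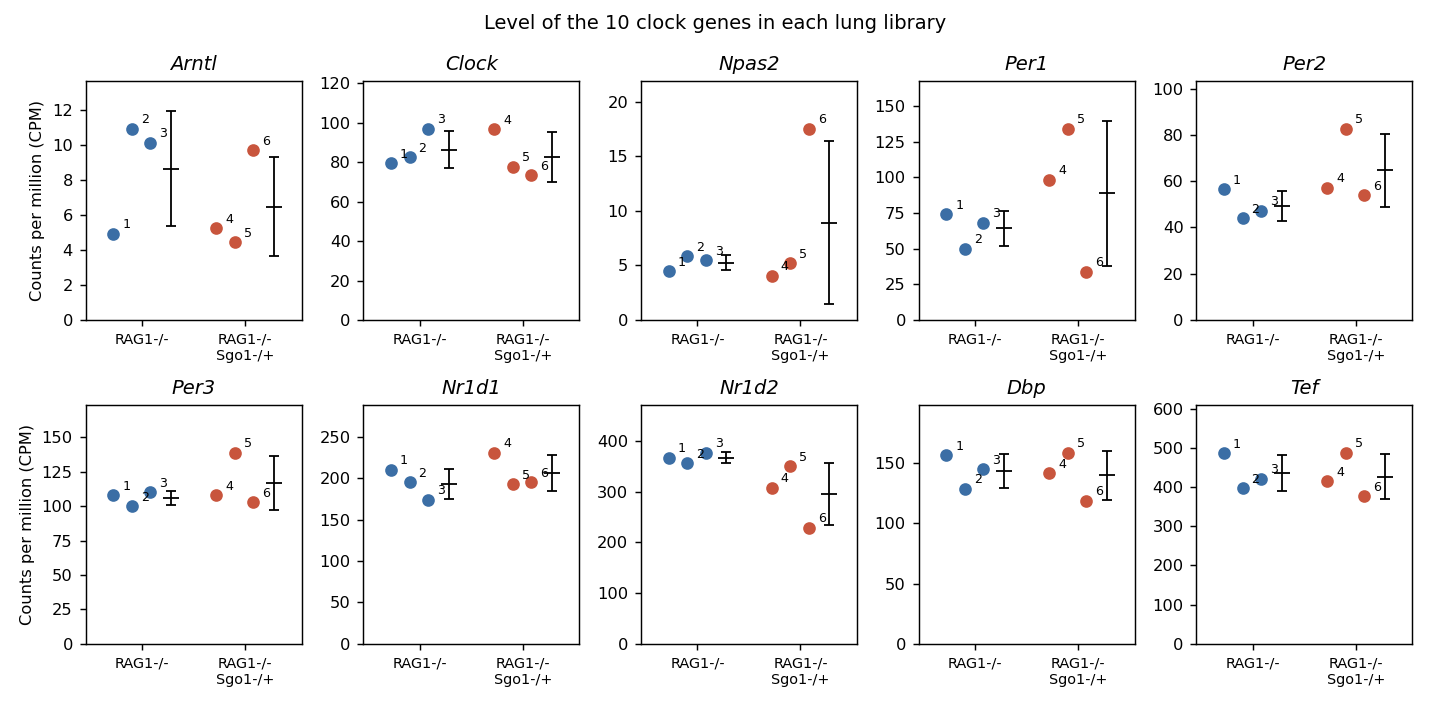
CPM (y axis, linear, from 0) of the 10 clock genes in each lung library. Points are libraries with their replicate numbers (blue RAG1-/-, red RAG1-/- Sgo1-/+), and the bar beside each group is its mean ± SD (n = 3). Arntl was near 5 or near 10 CPM within both groups, and Npas2 was high in replicate 6 alone.

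Arntl, the one indispensable activator of the loop, was at 4.91, 10.9 and 10.1 CPM in RAG1-/- and 5.25, 4.45 and 9.67 CPM in RAG1-/- Sgo1-/+. The values fell into 2 sets that cut across the genotypes, with replicates 1, 4 and 5 near 5 CPM and replicates 2, 3 and 6 near 10. They rest on 24 to 67 reads per library. The exact 95% Poisson interval, taken on read pairs and covering counting error only, was 3.11 to 7.37 CPM in replicate 1, 2.80 to 8.98 in replicate 4 and 2.30 to 7.77 in replicate 5. It was 7.19 to 15.9 CPM in replicate 2, 7 to 14.2 in replicate 3 and 5.47 to 15.8 in replicate 6. The intervals of the lower and the higher libraries overlapped, those of replicates 1 and 2 only just. Overlap of single intervals cannot decide whether the 2 sets differ beyond counting error, and this was not tested. The group difference was a log2 fold change of -0.44 (SE 0.41, adjusted P=0.880), with a 95% interval from -1.35 to 0.47, and the groups overlapped, with P=0.3 in the exact permutation test of CPM, whose smallest possible P is 0.1. It was -0.81 without replicate 6 and -0.24 without the library labelled RAG1-/- replicate 2.

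Clock, the more abundant partner of ARNTL, barely varies over the day in most tissues. It was at 79.6, 82.4 and 96.9 CPM in RAG1-/- and 96.8, 77.8 and 73.3 CPM in RAG1-/- Sgo1-/+. The libraries of both groups filled the same narrow range, with the highest only 1.32-fold above the lowest. Its log2 fold change came to -0.06 (SE 0.15, adjusted P=0.963, 95% interval -0.39 to 0.27), so a 2-fold difference lies outside the interval.

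Npas2, which can stand in for CLOCK and is a REV-ERB target like Arntl, was at 4.48, 5.86 and 5.45 CPM in RAG1-/- and 4.04, 5.19 and 17.5 CPM in RAG1-/- Sgo1-/+. Replicate 6 was high and the other 5 libraries lay together. Its 95% Poisson interval in replicate 6 (11.6 to 25.2 CPM, on read pairs) did not reach that of any other library, of which the highest upper bound was 9.74 CPM. The log2 fold change of 0.71 (SE 0.51, adjusted P=0.859) turned to -0.18 without replicate 6. Npas2 and Arntl parted in replicates 2 and 3, where Arntl was near 10 CPM and Npas2 near 5.

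Per1, a repressor that also responds quickly to hormones and other signals, varied most among the repressors. It was at 74.2, 50.1 and 68.2 CPM in RAG1-/- and 98.2, 134 and 34.0 CPM in RAG1-/- Sgo1-/+. Replicates 4 and 5 were above every RAG1-/- library and replicate 6 was below them all, a 3.93-fold range over the 6 libraries. The mean was 64.2 ± 12.5 CPM in RAG1-/- and 88.6 ± 50.5 in RAG1-/- Sgo1-/+ (SD, n = 3), with a log2 fold change of 0.47 (SE 0.38, adjusted P=0.870) and an exact permutation P of 0.5. Single libraries moved this value in both directions. Without replicate 6 the log2 fold change was 0.85 (SE 0.19, unadjusted P=0.00164, adjusted P=0.900 over all genes), and without replicate 5 it was 0.06.

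Per2, the Period gene whose loss most disturbs the mouse clock together with that of Per1, was at 56.5, 44.0 and 47.2 CPM in RAG1-/- and 57.2, 82.6 and 54.0 CPM in RAG1-/- Sgo1-/+. Replicate 5 was high, and replicate 6, at 54.0 CPM, lay below RAG1-/- replicate 1, so the groups overlapped, with P=0.2 in the exact permutation test. Its log2 fold change was 0.39 (SE 0.18, 95% interval -0.01 to 0.80, unadjusted P=0.0565, adjusted P=0.832). Over the alternatives it stayed between 0.17 and 0.51. Per3, the Period gene least needed for the rhythm, was at 108, 100 and 110 CPM in RAG1-/- and 108, 139 and 103 CPM in RAG1-/- Sgo1-/+. Only replicate 5 stood out, and its log2 fold change came to 0.14 (SE 0.14, adjusted P=0.891). In all 3 Period genes the highest library was RAG1-/- Sgo1-/+ replicate 5, and the lowest was replicate 2 for Per2 and Per3 and replicate 6 for Per1.

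Nr1d1, which encodes REV-ERB alpha, a nuclear receptor that represses Arntl, was at 210, 195 and 174 CPM in RAG1-/- and 231, 193 and 195 CPM in RAG1-/- Sgo1-/+. The groups overlapped, and its log2 fold change came to 0.09 (SE 0.13, adjusted P=0.925, 95% interval -0.20 to 0.39). Nr1d2, which encodes REV-ERB beta, was at 367, 356 and 377 CPM in RAG1-/- and 308, 350 and 229 CPM in RAG1-/- Sgo1-/+. The RAG1-/- libraries lay close together and above all of the others, by a small margin over replicate 5 and a wide one over replicate 6. Its log2 fold change came to -0.31 (SE 0.16, 95% interval -0.66 to 0.04, adjusted P=0.832, exact permutation P=0.1), and without replicate 6 it was -0.155. The REV-ERB genes, often described together, thus had opposite signs here, neither past the threshold, and the difference between them was not tested.

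Dbp, a PAR bZIP transcription factor that is among the most strongly rhythmic transcripts of many tissues, was at 157, 129 and 145 CPM in RAG1-/- and 142, 159 and 119 CPM in RAG1-/- Sgo1-/+. All 6 libraries lay within 1.33-fold. Its log2 fold change came to -0.04 (SE 0.14, adjusted P=0.980, 95% interval -0.35 to 0.28). Tef, its relative that acts on the same D-box, was at 486, 397 and 421 CPM in RAG1-/- and 415, 488 and 376 CPM in RAG1-/- Sgo1-/+. Its libraries ranged over 1.30-fold in the same order as those of Dbp, with replicates 5 and 1 highest and replicate 6 lowest. For Tef the log2 fold change came to -0.03 (SE 0.14, adjusted P=0.983, 95% interval -0.35 to 0.29). For both, intervals of this width leave out a 2-fold difference in either direction.

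**Figure D2:**
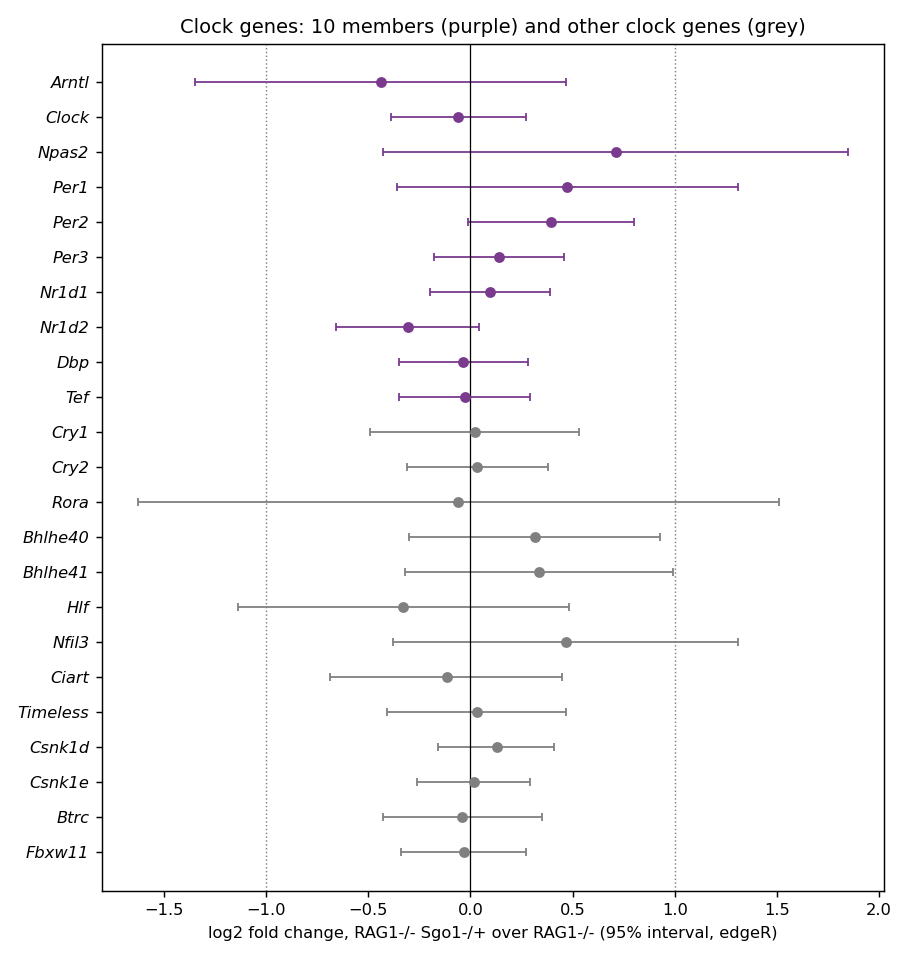
Log2 fold change (x axis, RAG1-/- Sgo1-/+ over RAG1-/-) with its 95% interval from the edgeR fit, for the 10 clock genes (purple) and 13 of the other clock genes (grey). Dotted lines mark 2-fold. The intervals of the 10 clock genes all include 0, and those of Arntl, Npas2 and Per1 also include a 2-fold difference.

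The opposite arms were then set against each other in each library. The log2 ratio of Dbp reads to Arntl reads was 4.99, 3.55 and 3.82 in the RAG1-/- mice and 4.73, 5.13 and 3.60 in the RAG1-/- Sgo1-/+ mice. It spanned 1.57 log2 units over the mice, and both genotypes held high and low libraries. The group means were 4.12 ± 0.76 and 4.49 ± 0.79 (SD, n = 3), a difference of 0.37, which is smaller than either SD. The difference ran from 0.04 to 0.81 when single libraries were left out. For Per1 over Arntl, chosen after its values were seen, the log2 ratio was 3.90, 2.19 and 2.74 in the RAG1-/- mice and 4.20, 4.88 and 1.80 in the RAG1-/- Sgo1-/+ mice, a span of 3.08. The outermost libraries of this ratio, replicates 5 and 6, belonged to the same genotype, unlike those of Dbp over Arntl (replicates 5 and 2). For Clock over Arntl the span was 1.28. Arntl, on 24 to 67 reads per library, ranged 2.45-fold, against 1.33-fold for Dbp, 1.32-fold for Clock and 3.93-fold for Per1. The spans of Dbp over Arntl and of Clock over Arntl thus come mostly from Arntl. These ratios of reads are not per length and are compared only between libraries.

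Library by library, replicate 5 had the lowest Arntl and the highest Per1, Per2, Per3, Dbp and Tef of all 6. Replicate 6 had the lowest Per1, Nr1d2, Dbp, Tef and Clock, the highest Npas2, and Arntl at 9.67 CPM. Replicate 2 had the highest Arntl and the lowest Per2 and Per3. Replicate 1 had Arntl at 4.91 CPM with Dbp and Tef second highest. Nr1d1 did not follow this order, and was highest in replicate 4 and lowest in replicate 3. The Arntl values fell into 2 sets of 3 libraries, and no pooled correlation of Arntl with the other members is given.

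**Figure D3:**
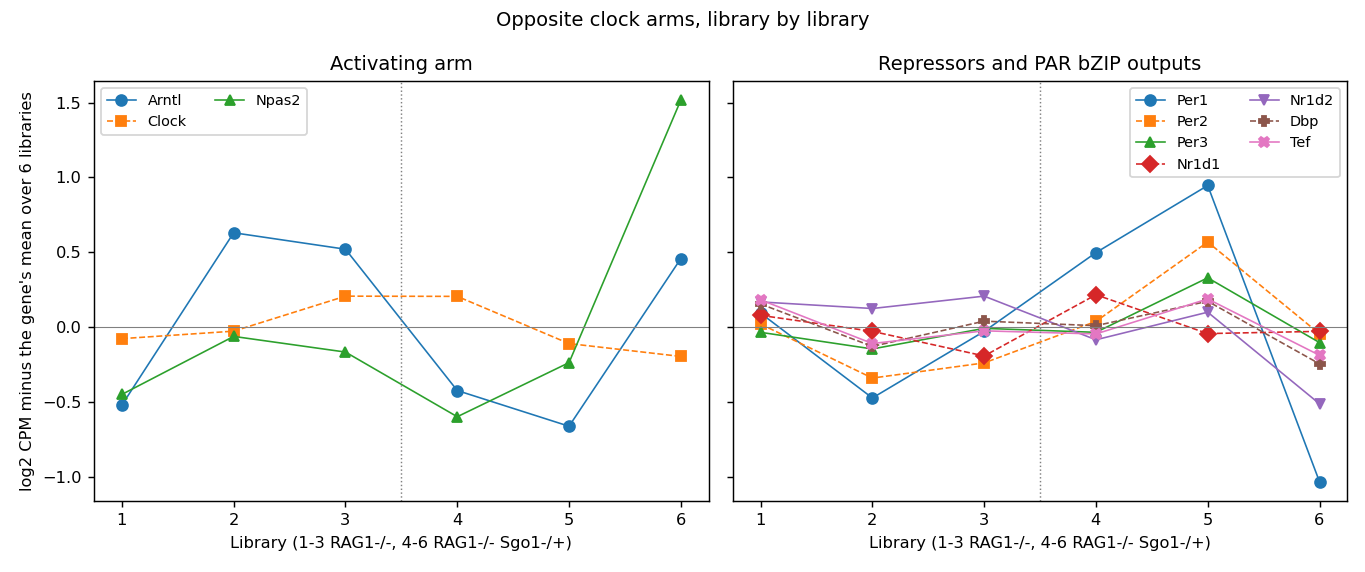
Log2 CPM of each clock gene minus its own mean over the 6 libraries (y axis), by library (x axis, dotted line between RAG1-/- and RAG1-/- Sgo1-/+); the lines join a gene's libraries and have no order in time. Arntl is low where Per1 is high (replicates 1, 4 and 5), and Nr1d1, Dbp and Tef stay within a narrow band.

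As a description of likeness, the 11039 other genes with a mean of at least 10 CPM were ordered by the Pearson r of their log2 CPM with Dbp over the 6 libraries. Tef stood at rank 14 (r 0.96) and Per1 at rank 136 (r 0.87), ahead of Nr1d2 at 623, Per3 at 897, Per2 at 1586, Clock at 4099 and Nr1d1 at 4904. The genes most like Dbp were Mrps6, Herpud1, Rwdd4a, Wdfy1 and Cep290 (r 0.98), and the least alike were H1f2 (r -0.99), a gene listed only by an identifier, Mfsd13a, Polr2h and Card6. In the same order for Arntl, over 11040 genes, Clock stood at rank 4882, Nr1d2 at 7146, Nr1d1 at 9484, Per3 at 10003, Per2 at 10667, Dbp at 10676, Per1 at 10733 and Tef at 10768. Snrpb2, a gene listed only by an identifier, Vps4b, Bloc1s2 and Vnn1 were most like Arntl (r 0.974 to 0.998), and AA986860, Sec14l4, Kpna1 and Prss8 were among the least (r -0.98). Npas2, with a mean under 10 CPM, is not in these orders. Arntl too had a mean under 10 CPM and is not in the order for Dbp, so its own order rests on a gene below the cut. These r values are a description over 6 libraries, which differ in depth, and carry no P.

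Beyond the 10 genes, 17 of 18 other clock genes were tested and 0 were called. The median log2 fold change over the 17 genes was 0.02. The cryptochromes, partners of the Period proteins, had log2 fold changes of 0.02 (Cry1, SE 0.23) and 0.03 (Cry2, SE 0.15). Rora, an activator at ROR elements, had only 3 to 13 reads per library with a value of -0.06 (SE 0.70).

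Among the E-box repressors of the DEC family, Bhlhe40 was at 0.31 (SE 0.28), with 246 CPM in replicate 6 and 109 to 146 CPM elsewhere, and Bhlhe41 at 0.33 (SE 0.29). Hlf, the third PAR bZIP factor, was at 28.2, 79.6 and 86.7 CPM in RAG1-/- and 54.1, 36.7 and 63.6 CPM in RAG1-/- Sgo1-/+. The difference was -0.33 in log2 fold change, with an SE of 0.36 and an adjusted P of 0.898. Unlike Dbp and Tef it was highest in replicates 2, 3 and 6, where Arntl was high too (rank 100 in likeness to Arntl and rank 10130 to Dbp). Nfil3, the repressor that competes for the D-box, was at 0.47 (SE 0.38), and Ciart, a repressor of the CLOCK and ARNTL pair, at -0.12 (SE 0.26). Timeless (0.03), the casein kinases Csnk1d (0.13) and Csnk1e (0.02) and the ubiquitin ligase subunits Btrc (-0.04) and Fbxw11 (-0.03) had SEs of at most 0.20. Arntl2, Fbxl21 and Rorb were at 0 reads in at least 1 library and had at most 14 in any. Fbxl21, at 9, 14 and 5 reads against 4, 2 and 0, had a value of -1.74 (SE 0.997).

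Further gene lists give what else moved beside the clock genes, and their part in the clock values was not tested. Their counts stand beside 3.15% of all tested genes higher and 2.52% lower at an unadjusted P under 0.05. Of 10 rhythmic output genes 0 had an unadjusted P under 0.05, and the most abundant, Alas1 and Por, had log2 fold changes of 0.22 (SE 0.18) and 0.01 (SE 0.19). The list ran from -0.38 to 0.91 with a median of 0.01. Of 9 glucocorticoid-responsive genes 1 was higher at an unadjusted P under 0.05, Ddit4 (0.60, SE 0.16, adjusted P=0.832), and 1 lower, Fkbp5 (-0.41, SE 0.17, adjusted P=0.832). The median of this list was 0.09. Of 7 temperature-responsive genes 0 had such a P, and 4 had log2 fold changes above 0 and 3 below, with a median of 0.47. The most abundant, Hsp90aa1 and Rbm3, were at -0.09 (SE 0.17) and -0.34 (SE 0.17). The highest value was that of Hspa1a, a heat-shock chaperone, at 1.27 (SE 0.60, unadjusted P=0.0602, adjusted P=0.832). Hspa1a was at 12.2, 6.47 and 15.1 CPM in RAG1-/- and 54.5, 20.7 and 5.61 CPM in RAG1-/- Sgo1-/+. Replicate 4 was far above the others and replicate 6 was lowest, with P=0.5 in the exact permutation test. Tsc22d3, a glucocorticoid-induced leucine zipper gene that also cycles in many tissues, was at 262, 185 and 252 CPM in RAG1-/- and 303, 443 and 119 CPM in RAG1-/- Sgo1-/+, the same order of libraries as Per1. Errfi1, an inhibitor of the epidermal growth factor receptor, had 298, 185 and 296 CPM in RAG1-/- and 341, 403 and 140 CPM in RAG1-/- Sgo1-/+. Both were chosen after their values were seen, and stood at ranks 70 and 50 in likeness to Dbp. The other glucocorticoid-responsive genes were spread over this order, from Klf9 at rank 1110 to Mt1 at rank 10985. Mt1, at 95.5 CPM, was highest in replicate 6, where Per1 was lowest.

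Of 8 immediate early genes, 5 were lower in RAG1-/- Sgo1-/+ at an unadjusted P under 0.05, beside 2.52% of all tested genes, and 0 were called. These were Nr4a1 (log2 fold change -1.65, SE 0.41), Dusp1 (-0.58, SE 0.15), Fos (-1.29, SE 0.36), Egr1 (-1.62, SE 0.57) and Fosb (-1.14, SE 0.49), each with an adjusted P=0.832. Fos, which like Per1 is induced through CREB, was at 93.1, 104 and 123 CPM in RAG1-/- and 22.2, 34.1 and 76.7 CPM in RAG1-/- Sgo1-/+. Replicates 4 and 5 were therefore the lowest libraries for Fos and the highest for Per1, and the median log2 fold change of the immediate early list was -0.86.

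**Figure D4:**
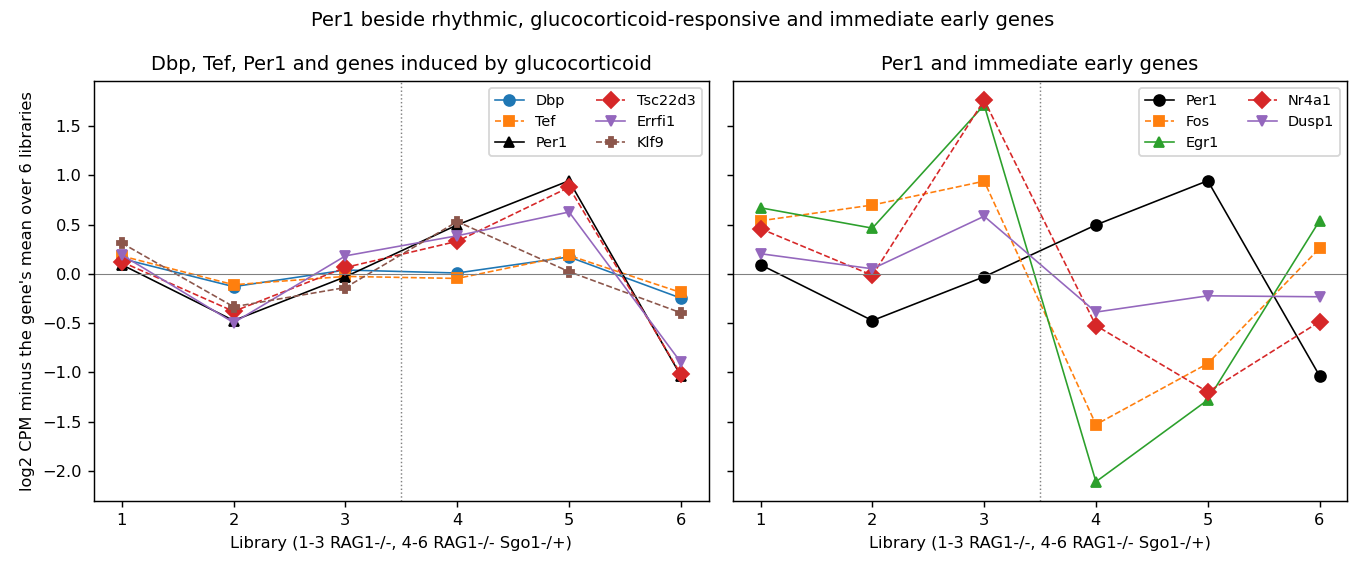
Log2 CPM minus each gene's mean over the 6 libraries (y axis) by library (x axis, dotted line between genotypes). On the left Per1 (black), Tsc22d3 and Errfi1 follow the same order of libraries and vary more widely than Dbp and Tef. Klf9, also on the left, does not follow that order and is highest in replicate 4. On the right Fos and Egr1 are lowest in replicates 4 and 5, where Per1 is highest.

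Levels of cell marker genes also differed between the libraries. Over all tested genes, 2.52% were lower and 3.15% higher at an unadjusted P under 0.05. Of 5 neutrophil markers 3 were lower at an unadjusted P under 0.05 and 0 higher, with a summed level of 73.1 to 120.0 CPM in RAG1-/- and 23.6 to 59.7 in RAG1-/- Sgo1-/+. Of 5 red cell markers 2 were lower, with sums of 1699 to 4641 and 1302 to 2338 CPM. Of 5 adipocyte markers 4 were lower, through replicate 1 at 719.5 CPM, while the other libraries summed to 59.5 to 111 CPM. B and plasma cell markers summed to 452 CPM in the library labelled RAG1-/- replicate 2 and to 6.67 to 8.75 CPM elsewhere, and 3 of 5 were lower. Cardiac muscle markers of the pulmonary vein, 0 of 5 at an unadjusted P under 0.05, summed to 103 to 183 CPM in RAG1-/- and 112 to 168 CPM in RAG1-/- Sgo1-/+. Of the 11 lung marker genes 1 had such a P, Foxj1 of ciliated cells, at 0.58 (SE 0.24, adjusted P=0.832). Whether cell numbers differed, and their part in the clock values, was not tested.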

How the data were processed

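RNA from 6 lungs was made into TruSeq V2 libraries, sequenced on an Illumina MiSeq and read out by the authors with Genesifter on mouse build 37.2. BWA and edgeR are named in the submitters' processing notes, and versions are not given in the sources used here. The authors deposited whole-number read counts per gene without normalization. Each library stands under 2 headings with identical values, of which the first was used. The authors' table of their own comparison (group means, ratios, P-values, ontology terms) was not used. Of 25860 genes, 24048 (93.0%) were named by Entrez Gene ID. Between 63.5% and 69.0% of counts above 0 were even, as when both reads of a pair are counted, so halved counts were an alternative.

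Genes with at least 10 counts over the 6 libraries were tested with edgeR 4.0.16 (quasi-likelihood, total count as library size, R 4.3.3), with Benjamini-Hochberg adjustment over all 17231. A gene was called at an adjusted P under 0.05 and 2-fold. The SE is the log2 fold change over the square root of F, and the 95% interval uses the test's degrees of freedom. The workflow was checked on simulated data. DESeq2 1.42.0, limma-voom (limma 3.58.1), other scalings and filters, and each library left out were alternatives. The CPM of single genes were compared by exact permutation, two-sided. The labels do not say whether the mice shared a cage, litter or preparation day.

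The members and gene lists were chosen with earlier results of these data known. Named genes are the 10 members, Sgo1 and Rag1, the other clock genes, the list members with an unadjusted P under 0.05 (at most 5) or the 2 most abundant, and the 5 most and 5 least alike to Arntl and Dbp. Thra, Sphk2, Xist, Ddx3y, Ucp1, Tsc22d3, Errfi1, Klf9, Mt1 and Hspa1a were added after their values were seen. For the lung and other cell markers only summed levels, counts and the genes that mark a single library are printed. The planned correlations of Arntl with each member were not computed as tests, because the Arntl values fell into 2 sets, and members are given only by rank in likeness to Arntl. Some genes that this rule names are not reported here.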

Additional observations from a re-analysis of the deposited data

How the results depend on the processing

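No paired analysis was run, because the labels give nothing, such as litter or cage, that pairs mice between the groups. No clock gene was called under any alternative (TMM, DESeq2 size factors, no filter, filterByExpr, DESeq2, limma-voom, halved counts, no fold threshold, and single libraries left out), nor without both replicates 2 and 6, which was chosen after seeing the data. Over all genes 1 was called by DESeq2 (Awat1), and 0 to 1 when single libraries were left out (H2-K1, without replicate 5). At an unadjusted P under 0.05 the number of clock genes moved from 0 to 1 with no filter on low counts (Per2, beside 1044 of 19587 genes), to 1 with DESeq2 (Nr1d2, 694 of 17231) and to 1 without replicates 2 and 6 (Per1, 611 of 16754). It ran from 0 to 2 with single libraries left out, with Per2 without replicate 1 (1194 of 16829) or 4 (1420 of 17056), Nr1d2 without replicate 5 (928 of 17028), and Per1 and Per2 without replicate 6 (850 of 17049).

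The signs of Arntl, Per1, Per2, Nr1d1 and Nr1d2 were the same under every alternative run. With single libraries left out, Npas2 ran from -0.18 (without replicate 6) to 1.07, Clock from -0.19 to 0.03, Per3 from -0.006 to 0.22, Dbp from -0.14 to 0.065 and Tef from -0.14 to 0.06, each changing sign, and Arntl ran from -0.81 to -0.22, Per1 from 0.06 to 0.85, Per2 from 0.17 to 0.51, Nr1d1 from 0.00 to 0.16 and Nr1d2 from -0.45 to -0.155. Without both replicates 2 and 6 Npas2 was at -0.10. The cause of these moves, beyond the smaller number of libraries, was not tested. Reads were fewest for Arntl (24 to 67 per library) and Npas2 (20 to 56). The other 8 members had at least 109 reads in every library.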
